A study of Mus musculus with 288 samples.

Results

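The response of macrophages to muramyl dipeptide (MDP) and lipopolysaccharide (LPS) given together was followed in 24 wells, labelled MDP_LPS, of a series of 288 wells. These were all the wells so labelled, and each was set against the unstimulated well (NoStim, 24 wells) of the same plate and time. The cells were macrophages (BMDMs) differentiated ex vivo from bone marrow of 12-week-old C57BL/6 mice, with M-CSF for 7 days. Before the stimulus they had been kept for 24 h in dCA (100 nM) or BRD-6989 (1 µM), named by the labels as CDK8 inhibitors, or in DMSO, for which the labels give no duration. Wells were labelled 15, 30, 45, 60, 90, 120, 150 and 180 min, and each combination was a single well. Since every pretreatment had a plate of its own, and MDP_LPS always stood in plate column 10 and NoStim in column 1, inhibitor and plate, or stimulus and column, cannot be told apart. The wells are not labelled as coming from different cultures or mice, and p-values therefore measure the spread between wells only, which may be technical.

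LPS, a cell wall component of Gram-negative bacteria, is bound by Cd14 and the receptor Tlr4. Tlr4 signals from the cell surface through Myd88 to NF-kB and the MAP kinases, and from endosomes through Ticam1 to interferon regulatory factors, interferon beta and, through its receptor, a later wave of interferon-induced genes. MDP, a fragment of bacterial peptidoglycan, is sensed inside the cell by Nod2, which recruits the kinase Ripk2 and also leads to NF-kB. In macrophages these pathways switch on chemokines, cytokines and their own inhibitors in a fixed sequence of early and late genes.

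Each well yielded counts of unique molecular identifiers (UMI, distinct tagged transcripts) at the 3′ ends of genes, and counts of 58 transcription factor reporters. UMI totals were 54931 to 127223 in MDP_LPS wells and 51040 to 125974 in NoStim wells. Rn45s, the ribosomal RNA precursor, took 48.4% ± 5.33 of the UMI in MDP_LPS and 51.9% ± 5.71 in NoStim (mean ± SD, n = 15 wells each, 60 to 180 min). On the dCA plate these shares were 46.6% ± 5.50 and 52.3% ± 4.21 (n = 8 each). The count of genes called from 60 to 180 min, 209 as given further on, was 206 with Rn45s left out, 164 with its share as a covariate and 181 without the wells of the highest and lowest share. Macrophage markers were present throughout: Csf1r, Cd68, Lyz2, Emr1, Itgam, Cd14, C1qa, C1qb, C1qc and Mrc1 had UMI in all 48 wells, Fcgr1 in 34, Aif1 in 13 and Mertk in 5. Summed markers of mast cells and erythroid cells were at 0 in every well. In all 48 wells 8 of 10 T and NK cell markers, 4 of 5 B cell markers, 4 of 7 dendritic cell markers and 6 of 8 stromal and endothelial markers were at 0. The highest sums of these last lists were 48.2, 12.7, 67.1 and 55.9 CPM in MDP_LPS and 36.1, 0, 80.7 and 89.9 CPM in NoStim. The 13 markers of neutrophils and myeloid progenitors, led by Cxcr2 and Mmp9, summed to between 0 and 108.4 CPM in MDP_LPS and 0 and 116 CPM in NoStim, against 9253 to 13168 and 8334 to 12399 CPM for 27 macrophage genes.

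Between 60 and 180 min, MDP plus LPS raised 179 genes and lowered 30 of the 5872 tested, which is 3.56% called in either direction, 3.05% higher and 0.511% lower. The rises were led by chemokines, interleukin 1 beta and interferon-induced genes, and the falls included the macrophage transcription factor Maf. The test was edgeR's quasi-likelihood test on 15 against 15 wells with plate and time as blocks, at a Benjamini-Hochberg adjusted p under 0.05. The median log2 change over all tested genes was -0.09. Fewer cells of a kind and less RNA per cell cannot be told apart in these bulk wells. Genes were tested where they averaged 1 UMI per well or more, and a gene silent at rest could reach that average through the stimulated wells, so the share of members that rose is no measure of all members. In 21 genes (0.358% of those tested) all 15 MDP_LPS wells lay above all 15 NoStim wells, and in 0 genes all lay below. These were Ccl12, Ccl2, Ccl3, Ccl4, Ccl7, Ccrl2, Cd14, Cxcl1, Cxcl2, Dusp1, Gadd45b, H3f3b, Il1b, Marcks, Mtdh, Nfkbia, Pim1, Rsad2, Socs3, Tiparp and Tnfaip2.

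Upstream sequences of 6 genes are shown here because these genes carry the 2 courses described further on, an early one (Cxcl2 and Nfkbia) and a late one (Ifit1 and Rsad2), or mark the response (Il1b and Edn1). Each is the 250 bases before a RefSeq start on GRCm38.p6, read 5′ to 3′ on the strand of the gene. For Il1b that start lies inside the span annotated for the gene, so that the window overlaps the first bases of the gene. Capitals mark a kappa B site, the 10-base motif bound by NF-kB, in Cxcl2 and Nfkbia, and the core of the interferon-stimulated response element (ISRE) (GAAA and GAAA spaced by 2 bases, on either strand) in Ifit1, Rsad2 and Edn1. The windows are chr5:90903649-90903898 (plus strand) for Cxcl2, chr12:55492648-55492897 (minus strand) for Nfkbia, chr19:34640639-34640888 (plus strand) for Ifit1, chr12:26456453-26456702 (minus strand) for Rsad2, chr2:129371140-129371389 (minus strand) for Il1b and chr13:42301226-42301475 (plus strand) for Edn1. The Cxcl2 match is read on both strands from overlapping positions, 97 to 87 bases before the start, and Ifit1 holds 2 ISRE cores.
Cxcl2: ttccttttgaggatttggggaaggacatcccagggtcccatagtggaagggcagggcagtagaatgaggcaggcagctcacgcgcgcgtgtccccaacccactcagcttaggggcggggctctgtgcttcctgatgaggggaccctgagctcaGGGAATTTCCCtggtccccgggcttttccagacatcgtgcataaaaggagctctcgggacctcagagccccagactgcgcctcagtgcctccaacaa
Nfkbia: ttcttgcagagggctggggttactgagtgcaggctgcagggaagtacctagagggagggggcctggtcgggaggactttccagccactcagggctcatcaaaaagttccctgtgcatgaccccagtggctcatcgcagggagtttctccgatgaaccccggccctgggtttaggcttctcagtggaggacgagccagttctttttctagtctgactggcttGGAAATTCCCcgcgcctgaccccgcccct
Ifit1: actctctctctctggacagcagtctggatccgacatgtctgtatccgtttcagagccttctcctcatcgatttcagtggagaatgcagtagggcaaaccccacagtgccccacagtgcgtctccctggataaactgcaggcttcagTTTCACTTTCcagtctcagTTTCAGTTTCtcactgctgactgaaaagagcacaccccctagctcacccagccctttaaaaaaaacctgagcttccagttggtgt
Rsad2: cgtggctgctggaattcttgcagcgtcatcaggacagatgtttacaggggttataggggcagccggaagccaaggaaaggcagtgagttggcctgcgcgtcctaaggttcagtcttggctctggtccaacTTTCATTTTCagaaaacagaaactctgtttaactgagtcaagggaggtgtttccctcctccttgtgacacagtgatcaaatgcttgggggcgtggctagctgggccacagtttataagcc
Il1b: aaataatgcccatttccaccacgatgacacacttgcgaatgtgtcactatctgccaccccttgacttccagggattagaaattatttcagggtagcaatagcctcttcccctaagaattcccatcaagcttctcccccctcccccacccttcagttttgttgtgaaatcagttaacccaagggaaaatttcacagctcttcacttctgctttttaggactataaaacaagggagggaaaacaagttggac
Edn1: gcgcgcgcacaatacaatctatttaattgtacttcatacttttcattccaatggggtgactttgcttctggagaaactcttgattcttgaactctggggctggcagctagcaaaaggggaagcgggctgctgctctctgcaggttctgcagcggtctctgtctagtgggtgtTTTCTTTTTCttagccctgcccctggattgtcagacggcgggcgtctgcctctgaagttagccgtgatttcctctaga

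Among the genes that rose, 140 of 179 had such windows (185 windows, some genes having several), and 40 windows (21.6%) held a kappa B site against 9.12% of the 5682 windows of tested genes and 7.25% of all 32851. An ISRE core stood in 24 windows of risen genes (13%), in 3.06% of windows of tested genes and in 2.98% of all. The windows of the 19 genes with a window that fell held a kappa B site in 10.7% and an ISRE core in 3.57%, and numbered 28. These are matches of letters in a fixed window, not measured binding. The genes whose sequences are shown are chosen examples, and whether the patterns differ between early and late genes was not tested. Il1b held neither pattern in its window.

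Ccl5 encodes a chemokine that draws T cells and monocytes, and lies on chromosome 11 (83525778 to 83530518, GRCm38.p6). It had the largest rise among called genes that averaged 2 UMI per well or more. Its level in MDP_LPS wells between 60 and 180 min ran from 21.6 CPM (UMI per 1e6 UMI of the well, scaled by TMM) through a median of 803 to 2046 CPM. In NoStim wells the lowest and the median were 0 and the highest was 34.9 CPM. The groups overlapped only through the 60 min well of the BRD-6989 plate. At 60 min MDP_LPS stood at 54.2, 116.8 and 21.6 CPM on the DMSO, dCA and BRD-6989 plates, and at 90 min already at 284.2, 362.2 and 426.3 CPM. At 180 min the same plates reached 2046, 2016 and 1300 CPM. The log2 change was 6.72 ± 0.33 (± SE; adjusted p = 1.06e-37), higher in 15 of 15 pairs of wells. It was 6.45 ± 0.56 on the DMSO plate, 6.47 ± 0.54 on the dCA plate and 7.56 ± 0.62 on the BRD-6989 plate.

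Il1b, the precursor of the fever-inducing cytokine interleukin 1 beta (chromosome 2, 129364569 to 129371164), was nearly silent at rest. MDP_LPS wells ran from 116.8 through 506.9 to 1101 CPM and NoStim wells from 0 through 0 to 67.8 CPM, without overlap. On the DMSO plate its level was 420.3 CPM at 60 min, 1101 at 90 min, 710.9 at 120 min, 865.7 at 150 min and 582.5 at 180 min. On the dCA plate it was 116.8, 254.9, 337.2, 589.1 and 506.9 CPM at the same times, below the DMSO plate at each of them. On the BRD-6989 plate it was 183.4, 484.5, 668.8, 967.8 and 416.2 CPM. The log2 change was 5.47 ± 0.36 (adjusted p = 1.59e-26). By plate it was 4.67 ± 0.54 with DMSO, where NoStim wells reached 67.8 and 53.5 CPM, then 6.35 ± 0.72 with dCA and 6.33 ± 0.65 with BRD-6989. Neither difference of log2 changes passed the test: it was between -0.28 and 3.63 for dCA and between -0.17 and 3.49 for BRD-6989 (95% intervals approximated from the F statistic).

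Edn1, which encodes the vasoconstrictor peptide endothelin (chromosome 13, 42301476 to 42307990), was a low and late member. It gave 110 UMI over 15 MDP_LPS wells and 1 UMI over 15 NoStim wells, a ratio of pooled UMI, scaled by depth, of 106.3 whose counting interval ran from 18.7 to 4236. Levels in MDP_LPS wells ran from 0 through 38.6 to 355.5 CPM and in NoStim wells from 0 through 0 to 13.7 CPM, so the groups overlapped. At 180 min the DMSO, dCA and BRD-6989 plates stood at 135.5, 108.6 and 355.5 CPM, while at 60 min they stood at 27.1, 0 and 0 CPM. The log2 change was 5.0 ± 0.82 (adjusted p = 1.24e-06), with 11 of 15 pairs higher. By plate, edgeR called it with DMSO only (6.84 ± 1.56, adjusted p = 0.0029). It was 3.44 ± 1.40 with dCA (adjusted p = 0.291) and 5.14 ± 1.52 with BRD-6989 (0.0617).

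**Figure D1:**
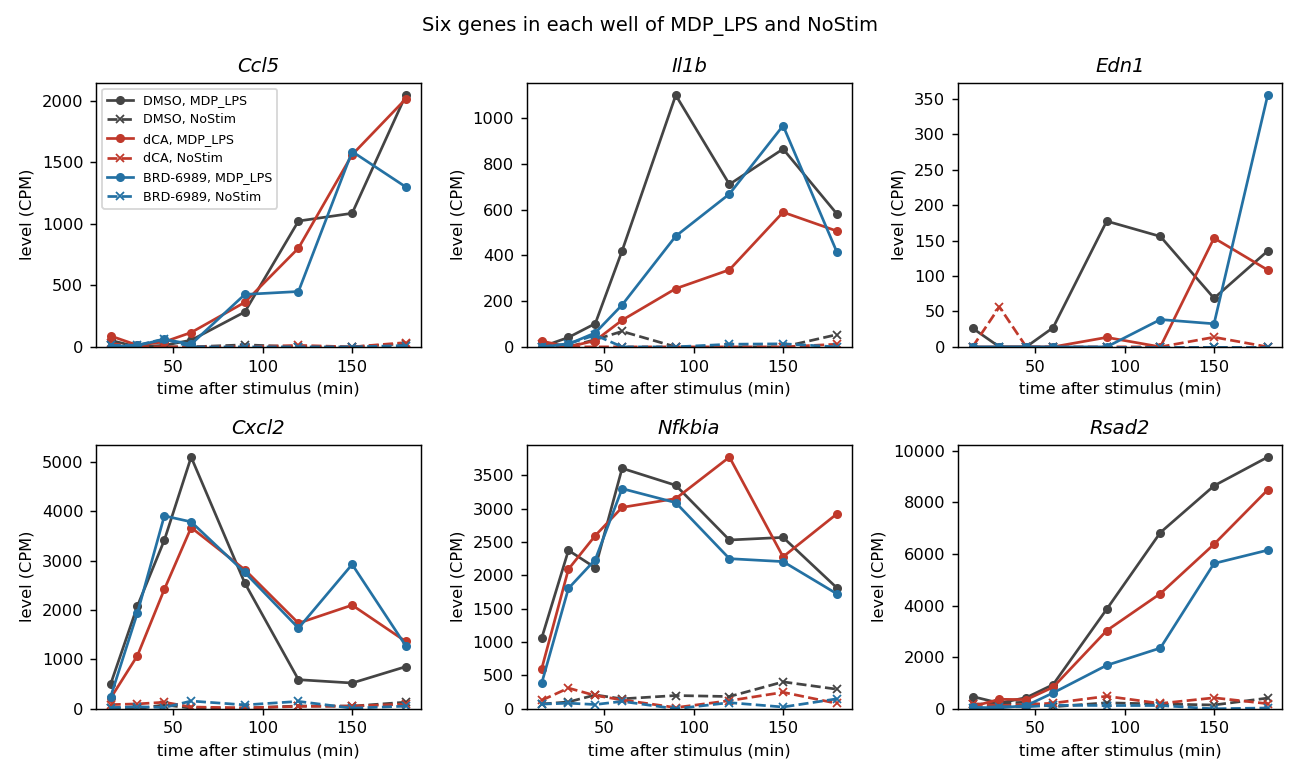
Level in CPM (vertical axis, linear, from 0) against time in minutes for 6 genes in each of the 48 wells, 1 line per plate, solid with circles for MDP_LPS and dashed with crosses for NoStim. Cxcl2 peaked between 45 and 60 min, while Ccl5 and Rsad2 were still at their highest levels at 150 or 180 min.

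Of the chemokines, 12 of 17 tested members rose and 0 fell, with a median log2 change of 3.12, the highest of the 13 lists, against -0.09 over all tested genes; 6 of the 23 in the table were too low to test. Cxcl2, a chemoattractant of neutrophils, ran from 522.2 through 2100 to 5098 CPM in MDP_LPS and from 13.3 through 53.8 to 157.2 CPM in NoStim, without overlap. Its log2 change was 4.89 ± 0.22 (adjusted p = 4.92e-40). Ccl4, a chemoattractant of monocytes and lymphocytes, ran from 2028 through 3655 to 5035 CPM against 31.4 through 137.4 to 305.6 CPM (4.46 ± 0.16, adjusted p = 5.98e-49), the smallest p of the comparison. The related neutrophil chemokines Cxcl1 (5.31 ± 0.41) and Cxcl3 (4.40 ± 0.52) rose from medians of 0 to 378.9 and 213.1 CPM. Ccl7 rose by a log2 change of 3.12 ± 0.16, Ccl3 by 3.27 ± 0.24, Ccl12 by 3.91 ± 0.37 and Ccl2, which recruits monocytes, by 2.30 ± 0.23. Ccrl2, an atypical receptor that binds chemerin, gave 129 UMI in MDP_LPS and 0 in NoStim, which is at least 41.6-fold higher with the floor set at 3 counts over the group. Cxcl9, Cxcl11, Cxcl16, Ccl6 and Ccl9 did not pass the test. Counts of this list and of those that follow stand against 3.05% higher and 0.511% lower among all genes tested.

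Of the cytokines, 11 of 14 tested members rose and 0 fell (median 2.65); 11 of the 25 in the table were not tested, Il6 among them with 28 UMI in MDP_LPS and 1 in NoStim. Tnf, the prototype inflammatory cytokine, ran from 108.4 through 465.1 to 840.6 CPM in MDP_LPS and from 15.7 through 69.0 to 173.7 CPM in NoStim. The groups overlapped, and the log2 change was 2.48 ± 0.27 (adjusted p = 1.01e-12). Tnfsf9, a costimulatory ligand, changed by 3.58 ± 0.47 and Il12b, a subunit of interleukins 12 and 23, by 3.97 ± 0.55. Il10, the anti-inflammatory cytokine, rose on few counts (52 against 1 UMI, 8 of 15 pairs higher, adjusted p = 0.00536). That call was lost without the DMSO plate (adjusted p = 0.166), without the BRD-6989 plate (0.151) and without 150 min (0.223). Ifnb1, interferon beta itself, gave 32 UMI in MDP_LPS and 0 in NoStim, at least 10.3-fold higher. Il1rn, the interleukin 1 receptor antagonist, rose by 2.39 ± 0.57 (adjusted p = 0.00256).

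A list of NF-kB subunits and feedback genes, which also holds genes such as Tnfaip2, Socs3 and Zfp36, showed a like pattern. In it 12 of 23 tested members were higher and 0 lower, with a median of 1.82. Nfkbia, which encodes the inhibitor that holds NF-kB in the cytoplasm, ran from 1725 through 2921 to 3774 CPM in MDP_LPS and from 0 through 133.5 to 403.7 CPM in NoStim (4.27 ± 0.19, adjusted p = 4.73e-41). The lowest stimulated well was thus above the highest unstimulated one. Tnfaip2, a TNF-induced gene, rose by 4.13 ± 0.20, Nfkbiz, a nuclear co-regulator of NF-kB, by 2.83 ± 0.29, and Tnfaip3, the deubiquitinase that ends NF-kB signalling, by 1.44 ± 0.29. The cytokine signalling inhibitor Socs3 rose by 4.21 ± 0.47. Of the subunits themselves Nfkb2 rose (4.28 ± 0.69, adjusted p = 7.70e-07), while Rel (2.68 ± 0.87, adjusted p = 0.0683), Relb (1.69 ± 0.68, adjusted p = 0.209), Nfkb1 (1.07 ± 0.48, adjusted p = 0.308) and Rela (0.92 ± 0.56, adjusted p = 0.552) did not pass. Nor did the inhibitors Nfkbie (1.51 ± 0.51, adjusted p = 0.0812) and Nfkbib (0.49 ± 0.86, adjusted p = 0.907).

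Of the receptors and adaptors that sense the stimuli, 1 of 18 tested members rose and 0 fell (median 0.39), which is near the 3.05% higher among all genes tested, and 15 more were too low to test. The member that rose was Cd14, from 40.4, 129.4 and 254.4 CPM (lowest, median and highest NoStim well) to 257.4, 484.5 and 627.5 CPM (1.74 ± 0.23, adjusted p = 7.89e-10). Tlr4 had a log2 change of -0.57 ± 0.63 (adjusted p = 0.826) on 41 against 55 UMI, and Nod2, with 14 UMI in MDP_LPS and 9 in NoStim, was not tested. Ripk2 had a log2 change of 2.36 ± 0.77 at an adjusted p of 0.0713 on 48 against 12 UMI. It passed with library totals without TMM (0.0467), without the filter on low counts (0.0489) and in total read counts (0.0092). Tlr2, the receptor of bacterial lipoproteins, rose by 2.65 ± 0.44 and was counted among the inducible surface proteins, not in this list.

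Interferon-induced genes were the list with the most tested members and also the most that rose, 28 of 61 and 0 lower, with a median of 1.47. Of tested members, 12 of 17 chemokines and 11 of 14 cytokines rose, and 3.05% of all genes tested. These shares do not rank the lists. Here 61 of 62 members in the table were tested, against 17 of 23 chemokines and 14 of 25 cytokines, and some genes, such as Ccl5, are in more than 1 list. Rsad2, the antiviral protein viperin (chromosome 12), was the most abundant of those named. It ran from 614.9 through 4464 to 9754 CPM in MDP_LPS and from 0 through 183.8 to 487.1 CPM in NoStim, without overlap (4.28 ± 0.21, adjusted p = 1.06e-37). Ifit1, an inhibitor of the translation of viral RNA, ran from 21.6 through 1060 to 2157 CPM against 0 through 39.9 to 96.2 CPM (4.60 ± 0.26). Here the only MDP_LPS well under 100 CPM at these times was the 60 min well of the BRD-6989 plate. Cxcl10 rose less (2.03 ± 0.20) from a higher resting level, a median of 298.9 CPM in NoStim and 1641 CPM in MDP_LPS. Irf1 rose by 3.57 ± 0.44, Mx1 by 3.93 ± 0.44 and Cmpk2 by 3.62 ± 0.34, while the 33 members that were tested without a call included Irf7 (0.41 ± 0.44).

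Among inducible enzymes and surface proteins 19 of 29 tested members rose and 0 fell (median 1.97). Irg1, the enzyme that makes itaconate (Acod1 in current annotation), rose from a NoStim median of 0 to 225 CPM (4.68 ± 0.45, adjusted p = 7.19e-16). The adhesion molecule Icam1 rose by 2.84 ± 0.28 and the membrane-trafficking protein Ehd1 by 2.80 ± 0.31. Ptgs2, the inducible cyclooxygenase, changed by 3.36 ± 0.63 (138 against 12 UMI), and Nos2, the inducible nitric oxide synthase, gave 5 UMI against 0 and was not tested. The survival list had 6 of 14 higher and 0 lower (median 1.51), among them Tnfrsf1b (1.66 ± 0.26), Cflar (1.10 ± 0.18), an inhibitor of caspase activation, and Bcl2a1d (2.13 ± 0.43). The copies of Bcl2a1 are close in sequence and the counting may have split their reads. Bcl2a1d lost its call in total read counts (adjusted p = 0.256), and Traf1 (3.49 ± 0.75), an adaptor of TNF receptors, lost its call without the dCA plate (0.081).

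A list of MAP kinase phosphatases, other kinases and regulators such as Gadd45b had 6 of 13 tested members higher and 0 lower (median 0.64). Dusp1, the phosphatase that shuts off p38 and JNK, ran from 104 through 147.5 to 260.1 CPM against 0 through 0 to 82.9 CPM (3.87 ± 0.48, adjusted p = 1.73e-10), without overlap. Pim1 (2.89 ± 0.26), Gadd45b (2.74 ± 0.33) and Mapkapk2 (1.80 ± 0.27) also rose. Of the immediate early genes 4 of 17 rose and 0 fell (median 1.16): Klf6 (1.48 ± 0.19), Junb (1.71 ± 0.26), Klf7 (2.71 ± 0.60; adjusted p = 0.126 in total read counts) and Ier3 (2.97 ± 0.88). Ier3 rested on 35 against 3 UMI and was lost without the dCA plate (adjusted p = 0.335), without 60 min (0.122), without 90 min (0.0898), without 120 min (0.0953) and without 180 min (0.125), and with each pair of wells as a block (0.134). The other large rises were in Dusp2 (4.76 ± 0.73), a nuclear MAP kinase phosphatase, Csrnp1 (4.60 ± 0.80), a nuclear protein, and Gpr85 (4.52 ± 0.69), an orphan receptor.

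Of the genes that fell, most of those named lost their call when a plate or a time was left out. Rgs2, a brake on G protein signalling, ran from 0 through 104 to 300.4 CPM in MDP_LPS and from 70.7 through 203.4 to 499.7 CPM in NoStim, and was lower in 15 of 15 pairs (-1.47 ± 0.29, adjusted p = 1.05e-04; 0.0813 in total read counts and 0.239 over all 8 times). Txnip, which binds thioredoxin and takes part in glucose control, fell by 1.54 ± 0.37 on the log2 scale; this call was lost without the dCA plate (adjusted p = 0.347) and without 180 min (0.056). Lhfpl2, a membrane protein, had a log2 change of -2.05 ± 0.45 (adjusted p = 5.90e-04) and lost its call without the BRD-6989 plate (0.0664) and in total read counts (0.141). Maf ran from 225.4 through 483.9 to 781.5 CPM against 450.7 through 813.5 to 1509 CPM (-0.82 ± 0.16, adjusted p = 1.17e-04; 0.0764 without the DMSO plate), so the groups overlapped. Reep5, Cast, Pigs and Rab3il1, with log2 changes of -1.85, -1.74, -2.11 and -1.68, lost their calls without the DMSO plate (adjusted p = 0.126, 0.338, 0.229 and 0.307) and without the dCA plate (0.191, 0.27, 0.6 and 0.124). Leaving out single times also ended the calls of Pigs (90, 120, 150 or 180 min, adjusted p = 0.0554 to 0.267; 0.136 with pairs as a block), Rab3il1 (120, 150 or 180 min, 0.0511 to 0.275) and Cast (60, 90 or 150 min, 0.0601 to 0.0991). The calls of these 4 were also lost with the Rn45s share as a covariate (0.186, 0.19, 0.103 and 0.206).

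**Figure D2:**
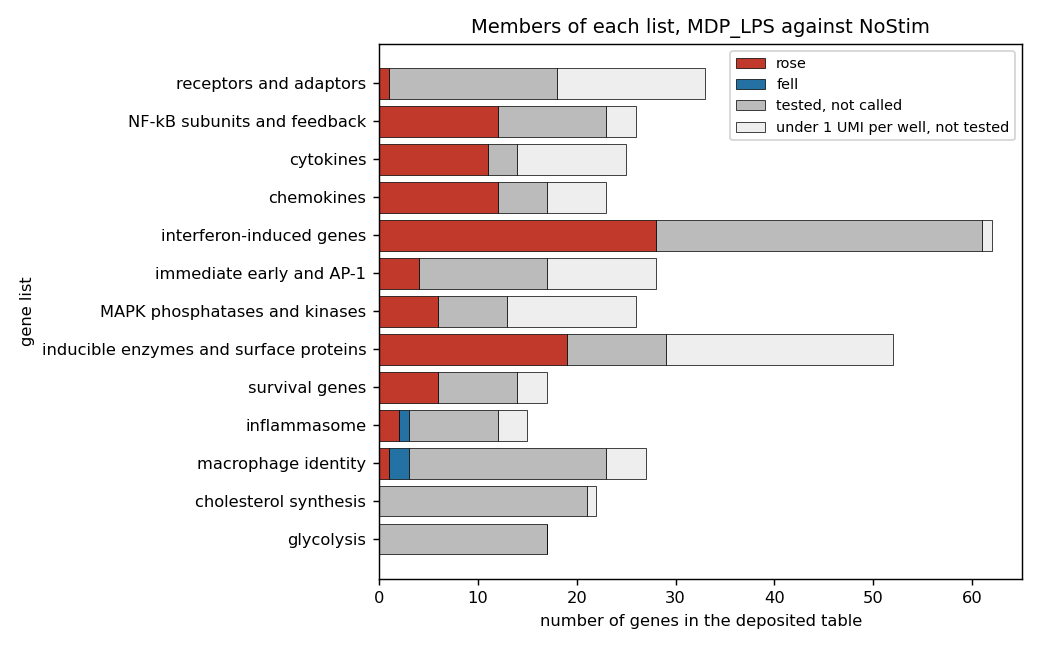
Number of genes (horizontal axis) in each of 13 gene lists, split into those that rose, those that fell, those tested without a call and those under 1 UMI per well. The 28 members that rose among interferon-induced genes are the longest red bar, and cholesterol synthesis and glycolysis have 0 called members.

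For the other programmes the counts stand against 3.56% called among all genes tested. Macrophage identity genes had 1 of 23 tested members higher (Cd14) and 2 lower, including Maf, with a median of -0.06; Mrc1, the mannose receptor, had a log2 change of 0.14 ± 0.12 and C1qa, a complement subunit, of 0.15 ± 0.24. None of 21 tested genes of cholesterol synthesis (median -0.16) and none of 17 of glycolysis (median 0.02) was called by edgeR, which is near that background. Among inflammasome genes Il1b and Casp4 rose and Txnip fell, out of 12 tested. Casp4, the sensor of intracellular LPS, was called at 1.70 ± 0.51 (adjusted p = 0.0352) and lost its call without either inhibitor plate (0.507 without BRD-6989, 0.167 without dCA). It was also lost without 60 min (0.0847), 120 min (0.177), 150 min (0.0781) or 180 min (0.181). Nlrp3 had a log2 change of 0.74 ± 0.55 (adjusted p = 0.67).

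The response was already present in the first wells. Between 15 and 45 min, 27 of 5774 genes (0.468%) passed in 9 against 9 wells, 25 higher (0.433%) and 2 lower (0.0346%). The count was 11 without 30 min and 16 without the BRD-6989 plate. Of these 27, 22 (81.5%) were also among the 209 called from 60 to 180 min, of which they made up 10.5%. Chemokines held 7 early rises among 14 tested, NF-kB genes 5 of 18, immediate early genes 3 of 17 and interferon-induced genes 1 of 57. The list of MAP kinase phosphatases, other kinases and regulators held 3 of 15. Cxcl2 stood at 501.5, 215.6 and 245.9 CPM at 15 min on the DMSO, dCA and BRD-6989 plates, against 23.8, 84.4 and 23.5 CPM in NoStim. By 60 min it stood at 5098, 3671 and 3786 CPM. Nfkbia stood at 1056, 596 and 380 CPM at 15 min against 71.5, 126.6 and 70.5 CPM. The early log2 changes were 4.65 ± 0.24 for Cxcl2 (adjusted p = 1.53e-78), 3.56 ± 0.21 for Nfkbia (1.04e-61), 2.91 ± 0.41 for Tnf (2.00e-09) and 2.29 ± 0.24 for Ccl4 (1.32e-18). Egr1, an immediate early transcription factor, was called by edgeR in this window and not in the later one. It was 483.6, 118.5 and 203.2 CPM at 30 min and 11.8, 0 and 0 CPM at 90 min. Its early change was 5.14 ± 0.77 (adjusted p = 3.17e-08) and its later one 2.56 ± 0.87 (adjusted p = 0.093; 0.0306 in DESeq2), and the difference between them was not called (-2.78 ± 1.61, adjusted p = 0.79).

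A test of the difference between the later and the early response called 27 of 5838 genes (0.462%), 23 higher (0.394%) and 4 lower (0.0685%), and 16 without 30 min. Ccl5 gained most, from an early log2 change of 1.18 ± 1.03 (adjusted p = 0.999) to 6.72 later, a difference of 5.77 ± 0.82 (adjusted p = 3.28e-07). Il1b gained 4.31 ± 0.95 (adjusted p = 0.00521), Mx1 4.20 ± 0.92 and Rsad2 3.67 ± 0.39 (1.20e-11). Ifit1 gained 3.89 ± 0.58, Tnfaip2 2.48 ± 0.42, Ccl4 2.18 ± 0.33, Ccl7 1.72 ± 0.27 and Cxcl10 1.80 ± 0.42. Rgs2 went the other way, from an early value of 0.68 ± 0.30 to the later fall, a difference of -2.15 ± 0.41 (adjusted p = 5.46e-04). For Cxcl2 (0.20 ± 0.49) and Nfkbia (0.72 ± 0.33) the difference did not pass, and for Tnf it was -0.25 ± 0.54.

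Within the window from 60 to 180 min, 17 genes (0.290%) changed their response with time, 11 upward (0.187%) and 6 downward (0.102%). Rsad2 gained 1.62 ± 0.22 log2 units per hour (adjusted p = 4.68e-08) and Cxcl10 1.22 ± 0.24 (adjusted p = 0.00113). The response of Cxcl2 lost 1.11 per hour (-1.11, adjusted p = 0.0446) and that of Cxcl3 lost 3.20 per hour (-3.20, adjusted p = 0.0401). For Cxcl3 the slope rested on 11 NoStim UMI and in part on NoStim, which averaged 0 CPM at 60 min and 42.2 CPM at 180 min. Its MDP_LPS mean went from 390.7 to 101.3 CPM between these times. Igtp, Gopc, Prcc, Cxcl9, Madd, Senp7 and Abca1, also called, had 6 to 217 UMI per stimulus, and the count of calls fell to between 4 and 8 when 1 plate, the 60 min or the 180 min wells were left out. The mean level over 3 plates was highest at 60 min for Cxcl1, Cxcl2, Cxcl3, Tnf, Nfkbia, Junb, Klf6 and Pim1, at 90 min for Tnfsf9 and Nfkbiz, at 150 min for Il1b, Irg1, Ccl4 and Ccl7, and at 180 min for Ccl5, Ifit1, Rsad2, Mx1, Edn1, Il12b and Icam1.

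The order was visible in the lists as well. The median difference of log2(CPM + 10) over the 17 chemokines was 0.62 at 15 min, 2.02 at 45 min, 3.51 at 90 min and 3.20 at 180 min. Over 17 immediate early genes it was highest at 30 min (1.66) and 0.85 at 180 min. Over 61 interferon-induced genes it was 0.17 at 45 min, 0.29 at 60 min, 1.01 at 90 min and 2.55 at 150 min. The same median over all tested genes stayed between -0.12 and 0.22.

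**Figure D3:**
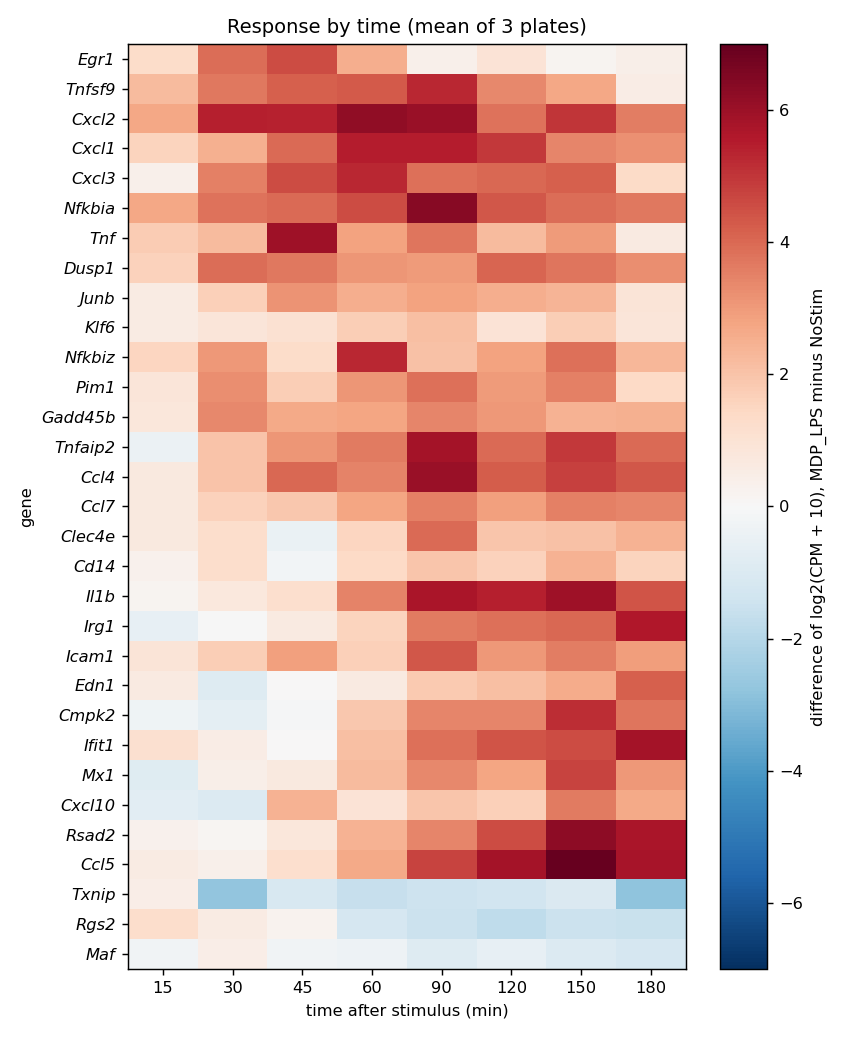
Colour gives the difference of log2(CPM + 10) between MDP_LPS and NoStim, averaged over 3 plates, for named genes (rows) at 8 times (columns, minutes). The row of Cxcl2 is red at all 8 times and that of Egr1 from 30 to 60 min, while the rows of Ifit1, Rsad2 and Ccl5 reach differences over 2 at 60 min and darken further from 90 min.

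Across the 24 pairs of wells, the genes among the 209 whose differences ran most like those of Ccl5 were Ifit1 (Pearson r 0.87), Rsad2 (0.87) and Irg1 (0.86). For Il1b they were Ccl5 (0.86), Ccl7 (0.85) and Ifit1 (0.80), and for Edn1 they included Ifit1 (0.81) and Iigp1 (0.72). The 24 points share 3 plates, 8 times and the depth of each pair, so these values are a description.

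The 3 plates gave the stimulus response separately. In a fit with a response for each pretreatment, 77 of 5872 genes (1.31%) were called on the DMSO plate (73 or 1.24% higher, 4 or 0.0681% lower), 94 (1.60%) on the dCA plate (82 or 1.40% higher, 12 or 0.204% lower) and 86 (1.46%) on the BRD-6989 plate (84 or 1.43% higher, 2 or 0.0341% lower), from 5 against 5 wells each. Without 150 min the dCA plate had 61 calls. The difference between responses, the test of whether an inhibitor altered the response to MDP plus LPS, called 0 genes for dCA against DMSO, 0 for BRD-6989 against DMSO and 0 for dCA against BRD-6989, which were given at different doses. At an unadjusted p under 0.05 there were 404, 299 and 337 genes, and the smallest adjusted p-values of edgeR were 0.541, 0.608 and 0.173. DESeq2 called 2, 4 and 4 genes.

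For genes well counted in stimulated wells, intervals approximated from the F statistic give a rough size of the change these wells leave possible. Resting counts could be low, with 8 UMI of Ccl5 over 15 NoStim wells. Near a difference of 0 such intervals can be too narrow. For Il1b, dCA minus BRD-6989 was 0.01 with an SE of 0.09, though the responses had SE of 0.72 and 0.65. The response of Ccl5 differed from that in DMSO by between -1.34 and 1.38 log2 units under dCA and between -0.82 and 3.05 under BRD-6989. For Ccl4 the intervals were -1.31 to 0.12 and -0.96 to 0.47, for Cxcl2 -0.41 to 1.78 and -1.13 to 1.31, and for Ifit1 -2.50 to 0.03 and -2.11 to 0.92. Rsad2 had responses of 4.65 ± 0.32 with DMSO, 3.60 ± 0.30 with dCA and 4.72 ± 0.34 with BRD-6989. Its interval was -1.86 to -0.23 under dCA, which leaves out 0, and -0.68 to 0.82 under BRD-6989. Nfkbia had 3.44 ± 0.28, 4.62 ± 0.30 and 4.92 ± 0.31, with intervals of 0.41 to 1.96 and 0.69 to 2.27. These intervals are not adjusted for the number of genes tested, and the adjusted p-values of edgeR were 0.658 for Rsad2 under dCA and 0.576 and 0.608 for Nfkbia. The NoStim wells of Nfkbia on the DMSO plate ran up to 403.7 CPM. The smallest p for dCA against DMSO came from Map4 and Hnrnpc, for BRD-6989 against DMSO from Nf1 and Nfkbia and for dCA against BRD-6989 from Map4 and Stx18, and none of these passed.

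**Figure D4:**
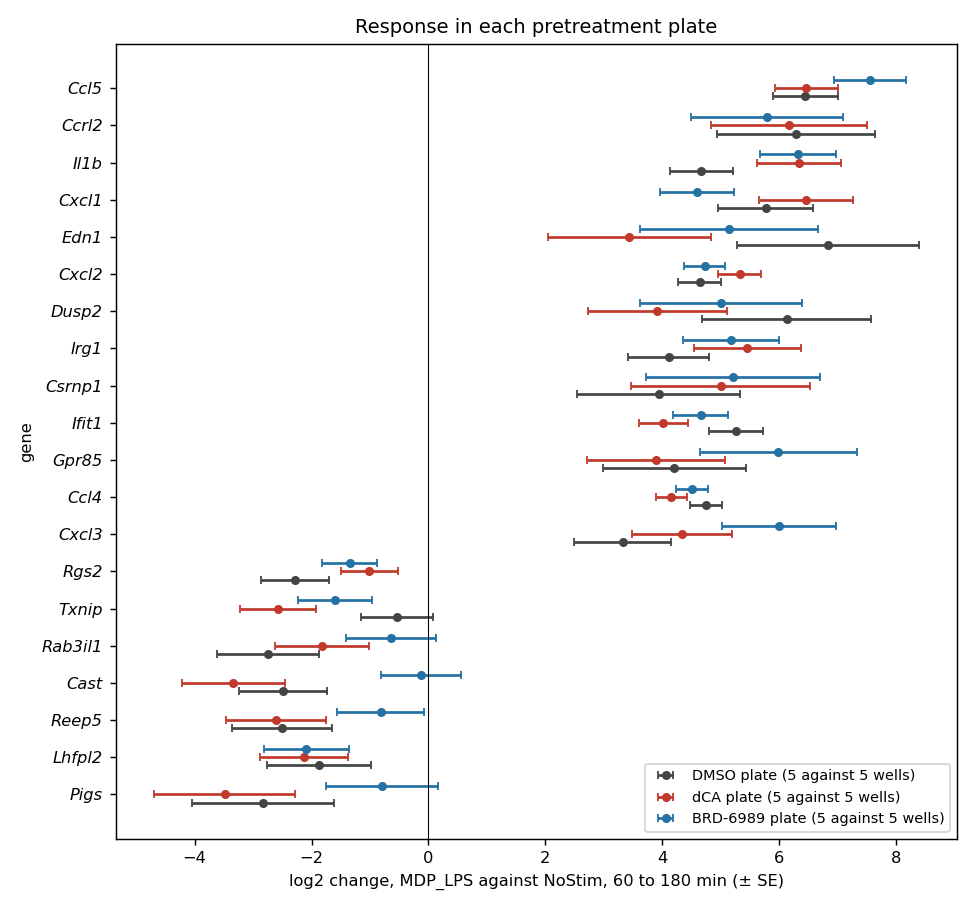
Log2 change from NoStim to MDP_LPS over 60 to 180 min (horizontal axis, points with SE bars) for the 3 marker genes, the largest rises and 7 of the 8 largest falls, with 1 point for each plate. Ccl5 lies between 6.45 and 7.56 on all 3 plates, and the falls of Cast, Pigs and Rab3il1 lie nearer 0 on the BRD-6989 plate.

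Direct comparison of MDP_LPS with LPS alone called 0 of 5539 genes in edgeR (231 at an unadjusted p under 0.05; 0 in DESeq2; 1 or 2 without 60, 90, 120 or 180 min or either inhibitor plate), the smallest adjusted p being 0.0956, for Cxcl2 (0.56 ± 0.13, medians of 2100 and 1423 CPM) and for Dhx15, an RNA helicase (1.25 ± 0.30). A further term was for departure from the sum of the log2 responses to MDP and LPS, that is from the product of their folds. It was called by edgeR in 1 of 5710 genes (0.0175%), Nfkbia (-1.38 ± 0.27, adjusted p = 0.00879). Mean levels of Nfkbia were 2773 CPM in MDP_LPS, 2303 in LPS, 502.2 in MDP and 147.3 in NoStim. Departure from a sum of the levels themselves was not tested. The term left 0 calls without 90 min, 120 min, the DMSO plate or the BRD-6989 plate. It gave 2 calls without 60 min and 3 without the dCA plate.

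The reporters were read in the same wells. In TF-seq, each reporter joins binding sites for a factor to a minimal promoter and is read through its own tag, and minP_58 is named for the minimal promoter. The sum of all 58 reporter counts per well between 60 and 180 min ran from 3651 through 6939 to 8354 in MDP_LPS and from 716 through 1084 to 1478 in NoStim, without overlap. It rose from 1303, 1468 and 1333 at 15 min to 6357, 8081 and 7706 at 180 min on the DMSO, dCA and BRD-6989 plates. Because the whole panel rose, the direction of a single reporter depends on what it is set against. Set against the UMI total of the well, 58 of 58 reporters were higher, by log2 changes of 0.64 to 4.98 with a median of 2.27, and minP_58 by 2.41 ± 0.14. Set against the rest of the panel with TMM, 14 of 58 (24.1%) were called, 7 higher (12.1%) and 7 lower (12.1%). Set against the plain reporter total, 5 were called higher and 31 lower.

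NFkB_1 rose most by each of these scales. Its count ran from 814 through 1503 to 1712 in MDP_LPS and from 19 through 40 to 76 in NoStim, or 21.7% ± 1.98 against 4.27% ± 1.95 of the reporter total (mean ± SD, n = 15 wells each). Its log2 change against the panel was 2.71 ± 0.15 (adjusted p = 1.91e-24) and 1.98 ± 0.18 between 15 and 45 min. Its share at 15 min was 13.6% on the DMSO plate, 6.68% on the dCA plate and 6.38% on the BRD-6989 plate, against 4.40%, 3.66% and 4.11% in NoStim. Other reporters named for NF-kB subunits were not called against the panel by edgeR. These were CREL_52 (0.18 ± 0.12, adjusted p = 0.288) and p52_RELB_37 (-0.04 ± 0.12, adjusted p = 0.825), at 2.43 and 2.21 per UMI total. IFNB1_44 ran from 74 through 294 to 390 counts against 6 through 14 to 25 and rose by 1.73 ± 0.12 against the panel. IRF1_55 (0.87 ± 0.14), SIE_56 (0.65 ± 0.14), STAT4_35 (0.55 ± 0.13) and ISRE_54 (0.44 ± 0.12) were among the others that rose. ISRE_54 was lost when scaled to minP_58 (adjusted p = 0.38), and so was STAT4_35 (0.151). ISRE_54 was also lost without the DMSO plate (0.0665), the dCA plate (0.124), 150 min (0.0571) or 180 min (0.103), and STAT4_35 without 180 min (0.0838).

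NRF2_4, a reporter named for the factor of the antioxidant response, made up 3.87% ± 0.985 of the panel in NoStim and 1.06% ± 0.375 in MDP_LPS, a log2 change of -1.61 ± 0.12 against the panel, yet its counts were higher in 14 of 15 pairs (72 against 42 at the median) and its change per UMI total was 0.64 ± 0.13. CLOCK_30 (-0.88 ± 0.10 against the panel, 1.37 per UMI total), AP1_33 (-0.85 ± 0.11 and 1.40), TFEB_28 (-0.63 ± 0.09 and 1.62) and MAF_36 (-0.41 ± 0.11 and 1.85) turned in the same way. EGR1_42 (-0.34 ± 0.11 and 1.92) and CEBPb_26 (-0.30 ± 0.10 and 1.97) did so too. EGR1_42 lost its call without the DMSO plate (adjusted p = 0.095), the dCA plate (0.105), 60 min (0.106), 150 min (0.0548) or 180 min (0.0736), and CEBPb_26 without the DMSO plate (0.0786), the dCA plate (0.231), 120 min (0.164) or 150 min (0.119). For the inhibitors, 0 of 58 reporters differed in response from DMSO in edgeR under dCA (4 at an unadjusted p under 0.05) and 0 under BRD-6989 (5 at an unadjusted p under 0.05). The interval for NFkB_1 was -0.04 to 1.37 under dCA and -0.26 to 1.16 under BRD-6989.

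**Figure D5:**
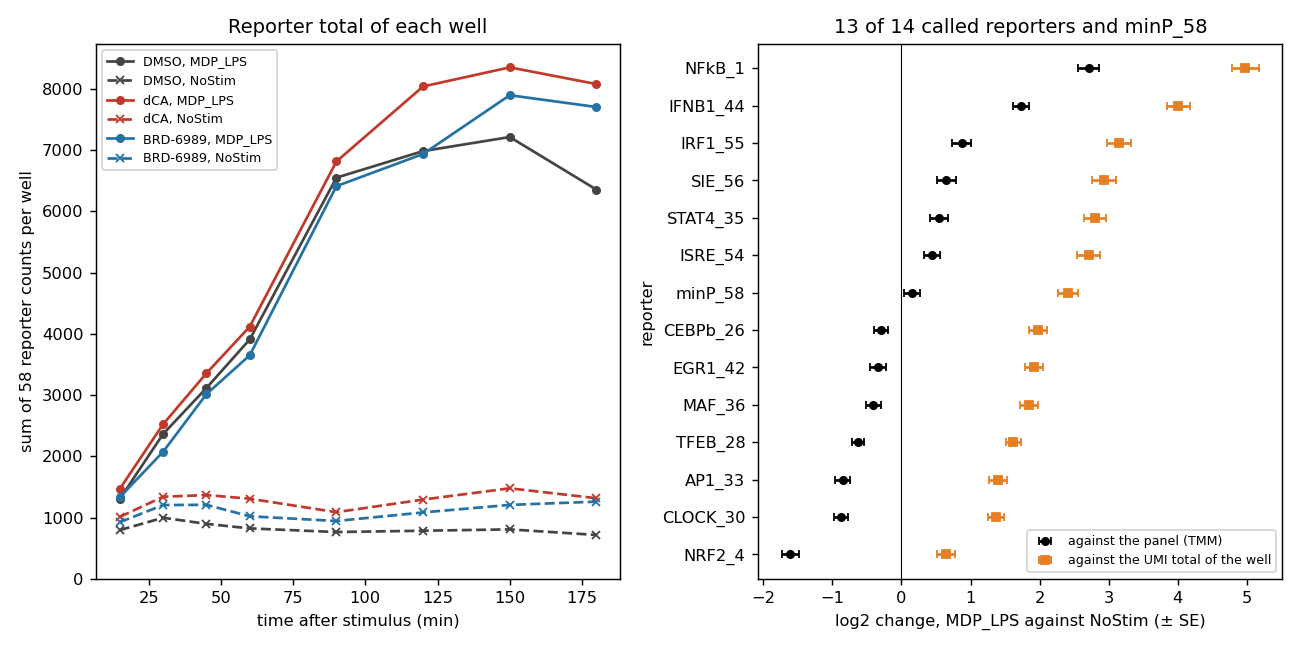
Left, the sum of 58 reporter counts in each well (vertical axis, linear from 0) against time in minutes, solid for MDP_LPS and dashed for NoStim, 1 colour per plate. Right, log2 change with SE of 13 of the 14 called reporters and minP_58, against the panel (black) and against the UMI total of the well (orange): the orange values are all above 0, while 7 of the black ones are below it.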

How the data were processed

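Wells came from 3 plates of bone marrow-derived macrophages, 1 plate per pretreatment, read by 3′ digital gene expression and by TF-seq. The authors deposited UMI counts and total read counts for 23481 genes and counts for 58 reporters; a further file, labelled as normalized, held these same reporter counts. The submitters' processing notes name mm10, BWA and edgeR; how UMI were counted is not given in the sources used here. Of the symbols in the tables, 76 of 76 named matched RefSeq (GRCm38.p6). Times follow the sample labels, where the series text has 0 to 4 h.

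UMI counts were tested with edgeR 4.0.16 in R 4.3.3 (TMM, quasi-likelihood, mean of at least 1 UMI per well, plate and time as blocks, Benjamini-Hochberg over all genes tested). Responses per plate shared 1 fit of 30 wells. Reporter counts were tested likewise with a mean of at least 5 counts. The SE is the log2 change divided by the square root of F. CPM were scaled over 96 wells (NoStim, MDP_LPS, LPS and MDP), with a pseudocount of 10 in log differences. Counting intervals are exact at 95% and cover counting error only. Tests were tried on simulated counts. The wells, gene lists and markers were chosen with earlier results of these data known.

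Genes named are the 3 markers, the 12 largest rises and 8 largest falls called with at least 2 UMI per well and 12 of 15 pairs in that direction, up to 4 members per list and direction, up to 4 per difference, and a fixed set. Other members of a list are given for context and were chosen after their values were seen. Alternatives were total reads, DESeq2 1.42.0, other scalings, filters and blocks, and leaving out each plate or time. Results for some items are not reported here.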

Additional observations from a re-analysis of the deposited data

Results flagged for a closer look

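In each plate, the 5 differences of log2(CPM + 10) between MDP_LPS and NoStim from 60 to 180 min were searched for a single well far from the other 4, in 93 gene and plate combinations. A well stood apart in 5 of them, where chance alone gives about 1 in 20 for values without a course in time. The 5 values of a plate are successive times, so a response that changes with time can stand apart without an odd well. Cxcl1 was low on the dCA plate at 180 min, with a difference of 2.46 against 5.25 to 5.77 at the other times. Its mean difference over the 3 plates also fell, from 5.47 at 60 min to 3.20 at 180 min. Csrnp1 was low on the dCA plate at 150 min (1.19 against 2.67 to 2.94). Ptgs2 was high on the DMSO plate at 120 min (4.33 against 1.89 to 2.36). On the dCA plate at 60 min Fos stood at -2.21 and Egr1 at 3.46, both against 0 at the other 4 times. With no spread among those 4 values, any difference at the remaining time would stand apart.

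The later response differed from that of 15 to 45 min by a test of the difference itself in 14 named genes. The differences in log2 change were 5.77 for Ccl5 (adjusted p = 3.28e-07), 4.31 for Il1b (0.00521), 4.20 for Mx1 (0.00521), 4.20 for Cmpk2 (2.77e-04) and -2.15 for Rgs2 (5.46e-04). They were 3.89 for Ifit1 (adjusted p = 1.18e-06), 3.67 for Rsad2 (1.20e-11), 2.48 for Tnfaip2 (3.81e-05), 2.41 for Ehd1 (0.0126), 2.18 for Ccl4 (1.99e-06), 1.80 for Cxcl10 (0.0126) and 1.72 for Ccl7 (6.58e-06). Med12, a subunit of the Mediator kinase module to which CDK8 belongs, had 4.95 (adjusted p = 0.00753), from -3.72 early to 1.49 later on 69 against 23 UMI in the later wells. In MDP_LPS wells Med12 was at 0 CPM at 30 and 45 min, against NoStim means of 71.0 and 134.8 CPM. Fubp1, a regulator of Myc, had -5.15 (adjusted p = 0.0436) on 35 against 89 UMI in the later wells. It was not tested early, where all NoStim wells were at 0 and MDP_LPS wells reached 39.6 CPM. Its later change was not called by edgeR (-1.47 ± 0.62, adjusted p = 0.243).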

How the results depend on the processing

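The count of genes changed by MDP plus LPS (209) stayed within 1.5 times under all alternatives, from 143 in total read counts to 289 in DESeq2. With each pair of wells of 1 plate and time, as the labels pair them, taken as a replicate block, it was 194, of which 187 were among the 209. The block ended the calls of 3 named genes, Ier3 and Pigs among them, and left 14 reporters. The Rn45s share as a covariate left 164 genes and 49 of 58 named ones; the 9 others included Casp4, Cast, Ier3, Il10, Klf7, Pigs, Rab3il1 and Reep5. None of the log2 changes of these 58 named genes turned in sign under the alternatives tried on them.

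Total read counts ended 10 of these calls, among them Bcl2a1d, Casp4, Klf7, Lhfpl2 and Rgs2. In total read counts the calls numbered 32 on the DMSO plate, 45 on the dCA plate and 48 on the BRD-6989 plate, 10 for 15 to 45 min, 14 for later minus early, 1 for the change over 60 to 180 min and 2 for the departure from the sum. With at least 5 UMI per well the change over 60 to 180 min had 9. DESeq2 gave 2 genes for dCA against DMSO, 4 for BRD-6989 against DMSO and 4 for dCA against BRD-6989. Leaving out a plate or time gave 0 to 2 calls against LPS alone, 0 to 3 for the departure from the sum, 4 to 20 for the change over 60 to 180 min, 11 to 32 for 15 to 45 min, 16 to 38 for later minus early and 61 to 101 on the dCA plate. It gave 0 to 1 for BRD-6989 against DMSO and 0 to 2 for dCA against BRD-6989. For 15 to 45 min and for later minus early the lowest came without 30 min, on the dCA plate without 150 min, and for the change over 60 to 180 min without the DMSO plate. The cause was not tested.

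Reporter totals without TMM gave 36 called reporters. Scaling to the UMI total gave 58 and turned NRF2_4 to 0.64, CLOCK_30 to 1.37, AP1_33 to 1.40, TFEB_28 to 1.62, MAF_36 to 1.85, EGR1_42 to 1.92 and CEBPb_26 to 1.97; the sign follows from the larger reporter totals of the stimulated wells. That scaling and the one to minP_58 were chosen after seeing the data, as was leaving out the 4 wells with extreme Rn45s shares (181 genes). With totals of 51040 to 127223 UMI per well, genes such as Il6, Nod2 and Nos2 averaged under 1 UMI per well and were not tested.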
